A study of Drosophila melanogaster with 9 samples.

Results

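The BEL/Pao elements described here are roo, rooA, diver, diver2, 3S18 and Max-element, found by exact name in small RNA tables of Drosophila melanogaster testes. They are 6 of the 117 elements counted in the stage and y w libraries and 6 of the 86 elements of the combined aub and ago3 table. BEL/Pao elements are retrotransposons with long terminal repeats (LTRs) that copy themselves through an RNA intermediate with the help of their own Gag and Pol proteins. In the fly germline such transcripts are targets of PIWI-interacting RNAs (piRNAs), small RNAs that guide Piwi-family proteins to matching transposon RNA. Aub and Ago3 are a pair of cytoplasmic Piwi-family proteins. In ovaries Aub mostly carries piRNAs antisense to transposons and Ago3 mostly sense ones, and cuts by each make new piRNAs for the other. roo is the most numerous LTR retrotransposon of this species, rooA is a relative of roo, and 3S18 is also known as BEL, the element that gave the group its name.

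The spermatocyte group held 2 libraries, from can mutant and sa mutant testes whose apical tips had been cut off. Both genes are needed for meiotic entry and their mutants stop as primary spermatocytes. The spermatogonia group held 2 libraries, from whole testes of bam mutants and bgcn mutants, in which germ cells go on dividing mitotically. Whole-testis libraries, 1 each, came from aub (N11/HN2) and ago3 (t2/t3) mutants, from their aub/CyO and ago3/TM6 heterozygotes, which carry balancer chromosomes, and from y w flies. The sources used here name no alleles of can, sa, bam and bgcn and no ages. Each stage is represented by a pair of different mutants, so a p-value measures the spread between those genotypes, and stage, stock and dissection cannot be told apart. No gene that marks a germ cell stage is counted in these tables, so the labelled stages were not checked against markers.

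Transposon-mapping reads per stage or y w library numbered from 262757 to 580459. In the combined table, reads worked back from the normalised values numbered 8434 in the aub mutant and 83953 in its heterozygote, and 33018 in the ago3 mutant and 102700 in its heterozygote. The sources used here state neither which read lengths entered the stage tables nor how a read matching more than 1 element was counted. Reads shared between related elements, such as roo and rooA, therefore leave single values uncertain. Ranges in brackets after a value are 95% intervals from the exact binomial method and reflect counting error alone.

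Copies of these elements in the reference genome differed in number and completeness. In the BDGP6 annotation, which describes the reference strain and not the stocks sequenced here, roo had 144 annotated copies, diver2 49, Max-element 23 (listed as Max), 3S18 19, rooA 17 and diver 13, with entries of the same name and position counted once. The roo copies had a median annotated length of 8990.5 bases, and 60 of them were 9000 to 9200 bases long. Another 18 were 420 to 440 bases long. The longest roo spans, up to 30008 bases, include whatever has inserted into them. Of the 13 diver copies, 11 reached 1000 bases and these ran from 5965 to 6164 bases. By contrast, 11 of the 49 diver2 copies reached 1000 bases and the median length was 435 bases. The medians of 3S18, rooA and Max-element were 3005, 1298 and 1050 bases.

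Most roo copies lay inside genes, and most copies of each of the others lay outside them. Of the 144 roo copies, 77 (53.5%) lay in a protein-coding gene without touching an exon, 13 (9.03%) overlapped an exon and 54 (37.5%) lay outside such genes. Intronic roo copies ran in the direction of the gene in 38 cases and against it in 39. For diver 10 of 13 copies lay outside protein-coding genes, for Max-element 19 of 23, for diver2 33 of 49, for 3S18 13 of 19 and for rooA 10 of 17. Over all 5887 annotated transposon copies the share outside was 54.6%. A copy of diver on chromosome 3R from 5747071 to 5753203 overlapped an exon of Madm on the same strand, and one on chromosome 2L from 6876832 to 6882964 lay in an intron of Nlg2, also on the same strand. Another lay in an intron of dnr1 on the opposite strand. All of these coordinates are BDGP6 coordinates. Chromosome arms were used unequally, with roo spread over X, 2L, 2R, 3L and 3R at 26 to 33 copies each, 3S18 found on X, 2R and 3L alone, and Max-element on 2L, 2R and 3L alone.

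**Figure D1:**
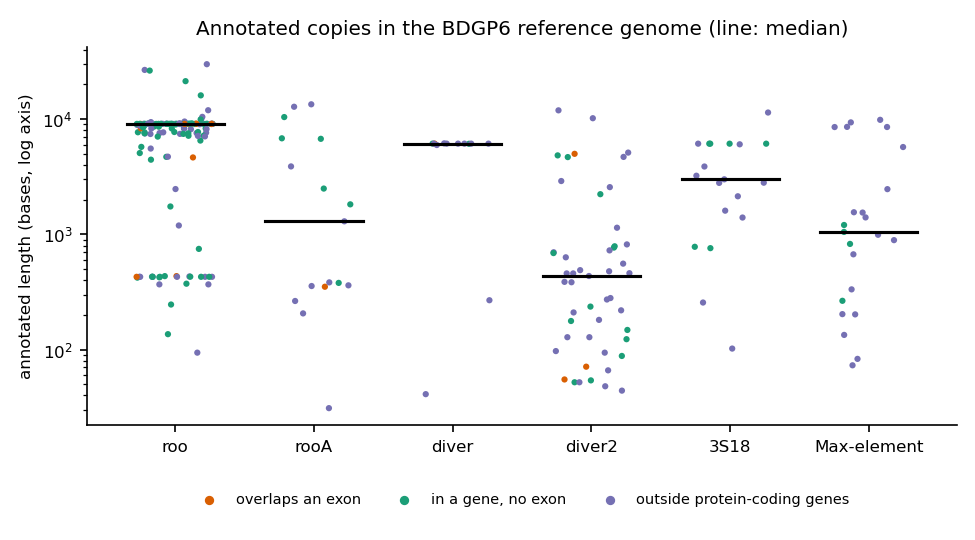
Annotated length in bases (log axis) of each copy of the 6 elements in the BDGP6 annotation, coloured by position relative to protein-coding genes, with a line at the median. The diver copies sit together near 6133 bases apart from 2 short ones, while most of the 49 diver2 copies lie under 1000 bases.

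Together the 6 elements took similar shares of transposon-mapping reads in the stage and y w libraries, while single elements shifted against each other. Their summed share was 8.30% (can) and 8.34% (sa) in spermatocyte testes, against 9.83% (bam) and 7.69% (bgcn) in spermatogonia and 6.85% in y w. The stage groups overlapped in this sum. roo supplied most of it in 3 of the 5 libraries, at 59.0% (can), 46.5% (sa), 50.6% (bam), 56.4% (bgcn) and 47.7% (y w) of the 6 elements' reads. The summed share of the other BEL/Pao elements of the tables, Dsim-ninja and aurora-element, did not overlap between groups, at 14.6% (can) and 8.21% (sa) against 0.783% (bam) and 2.11% (bgcn).

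**Figure D2:**
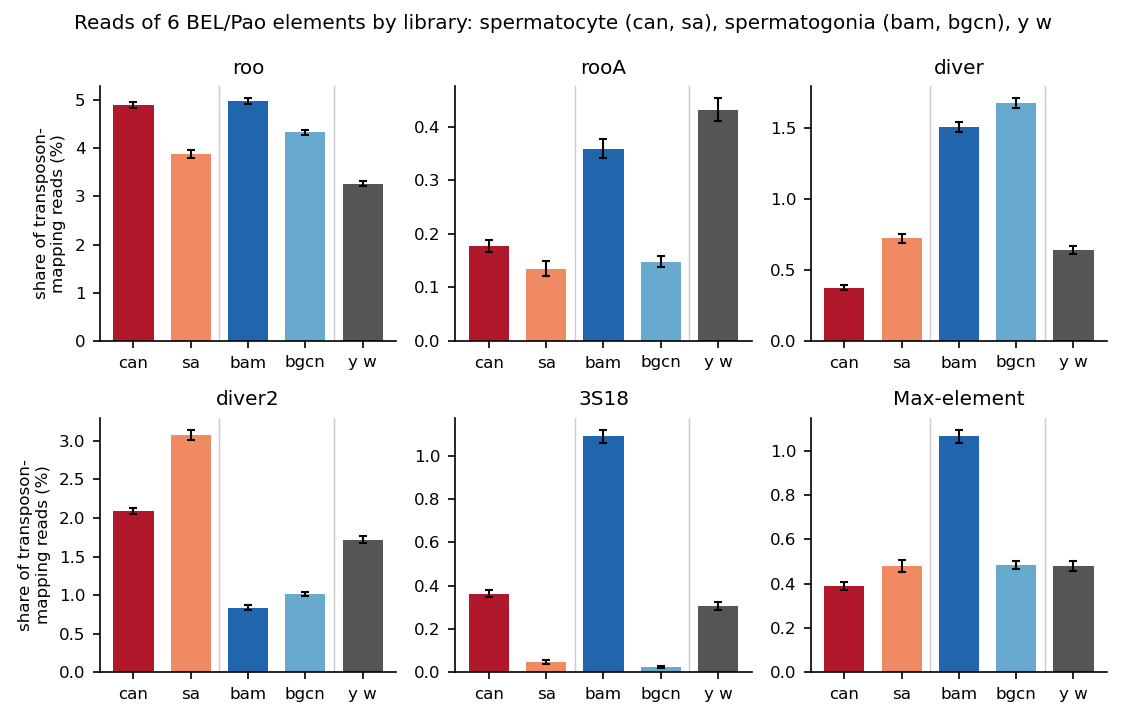
Share of transposon-mapping reads (%) of each element in spermatocyte (can, sa), spermatogonia (bam, bgcn) and y w libraries, with 95% exact binomial intervals on each bar. diver2 is higher in can and sa than in bam and bgcn, diver is lower there, and 3S18 differs most between libraries of the same group. Each panel has its own vertical scale.

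Small RNAs mapping to diver2 were the ones of the 6 called higher in spermatocyte testes, a call that depended on the scaling. diver2 had 10893 (can) and 8090 (sa) raw reads in spermatocyte testes, against 3688 (bam) and 5912 (bgcn) in spermatogonia, or 2.10% and 3.08% against 0.841% and 1.02% of transposon-mapping reads. Every spermatocyte value lay above both spermatogonia values. After TMM scaling, which sets the typical element equal between libraries, diver2 stood at 30507 ± 4282 rpm (reads per 1e6 transposon-mapping reads, rescaled) in spermatocyte testes and 7766 ± 834 rpm in spermatogonia (SD, n = 2 each). The log2 fold change was 1.97 (SE 0.61, edgeR quasi-likelihood test, adjusted p = 0.0184). This was 1 of 6 members called in the direction of higher, where 10 of the 114 tested elements (8.77%) were called higher and 12 (10.5%) were called in either direction. All 6 members had passed the count filter. DESeq2 also called diver2, together with 14.9% of elements, and so did edgeR with relative log expression scaling (7.02% of elements called), with no count filter (10.3%), with a count filter of at least 100 (10.4%) and without can (10.5%). The edgeR call was lost without bam (adjusted p = 0.160, 4.39% of elements called), without bgcn (0.0527, 7.89%) and without sa (0.0593, 6.14%), at log2 fold changes of 1.87, 2.09 and 2.12.

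The remaining BEL/Pao elements of the tables, Dsim-ninja and aurora-element, were both called higher, with log2 fold changes of 3.61 (edgeR adjusted p = 7.03e-07) and 3.45 (4.76e-06). Among other LTR elements 2 of 44 gypsy-family elements were higher and 1 lower, with a median log2 fold change of -0.13, and none of 3 copia-family elements was called. The median of the 6 members was -0.26 and that of all tested elements -0.05.

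The sign of a change depended on the scaling for roo, and the size did for every member. Over all tested elements the median log2 fold change moved to -0.55 when library totals were used and to -0.88 under the authors' factor per library. With library totals diver2 had a log2 fold change of 1.48 (edgeR adjusted p = 0.147, 5.26% of elements called). Under the authors' factors it was 1.09 (adjusted p = 0.277, 8.77% of elements called), so neither called it. Relative to the median element, diver2 stood at 2.03 (TMM), 2.02 (library totals) and 1.98 (authors' factors). On the same basis roo stood at 0.50, 0.46 and 0.46.

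None of the 6 was called lower by edgeR or by DESeq2, where edgeR called 1.75% of elements lower. At an unadjusted p below 0.05 none of the 6 was lower by DESeq2 or by edgeR with TMM scaling, where 7.89% of elements were lower. At that unadjusted threshold edgeR had diver lower with library totals and under the authors' factors, and 3S18 lower without can, and none of these passed after adjustment. diver had 1951 (can) and 1894 (sa) raw reads in spermatocyte testes, against 6600 (bam) and 9720 (bgcn) in spermatogonia. The groups did not overlap, at 4922 and 7851 rpm against 12843 and 13739 rpm after TMM scaling. The log2 fold change was -1.06 (SE 0.67), which was not called (edgeR adjusted p = 0.385). Groups lay apart by share for 3 of the 6 members, beside 51.8% of elements, and after TMM scaling for 2, beside 48.2%. By share 1 of the 6 members lay apart as higher and 2 as lower, beside 13.2% and 38.6% of the tested elements. After TMM scaling the numbers were 1 and 1, beside 21.1% and 27.2% of elements. Max-element was the member that lay apart by share, as lower, but not after TMM scaling. Its sa and bgcn shares, 0.480% and 0.483%, differed by less than their counting error.

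Elements of the gypsy kind that are known from the somatic cells of the gonad, taken here as a marker list of those cells, were lower by share in the same direction as diver. The 10 listed elements held 4.22% (can) and 6.58% (sa) of reads in spermatocyte testes, against 8.12% (bam) and 8.57% (bgcn) in spermatogonia. The direction was not particular to this list. All 44 gypsy-family elements together held 26.5% (can) and 37.5% (sa), against 47.6% (bam) and 47.1% (bgcn). After TMM scaling the median log2 fold change of the 10 listed elements was 0.01 and none was called. Their part in the diver values was not tested. In bulk tissue fewer cells of a type and less RNA per cell cannot be told apart.

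**Figure D3:**
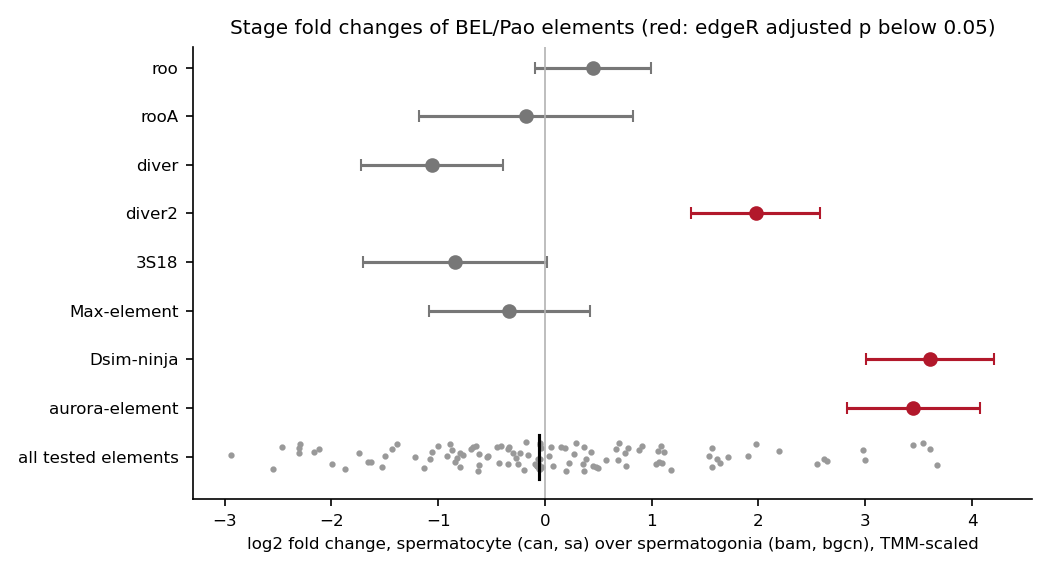
Log2 fold change of spermatocyte (can, sa) over spermatogonia (bam, bgcn) testes after TMM scaling, with standard errors, for the 6 elements, for Dsim-ninja and aurora-element, and for all 114 tested elements as grey points with a line at their median of -0.05. diver2 at 1.97, Dsim-ninja and aurora-element are the named elements past an edgeR adjusted p of 0.05.

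The ratio of diver2 to diver within a library, which no scaling can change, did not overlap between the stages. There were 5.58 (can) and 4.27 (sa) diver2 reads per diver read in spermatocyte testes, against 0.559 (bam) and 0.608 (bgcn) in spermatogonia and 2.69 in y w. diver2 was thus the more abundant of the pair in can, sa and y w, and diver in bam and bgcn. The smallest of the 4 possible contrasts between a spermatocyte and a spermatogonia library was 7.02-fold and the largest 9.99-fold. This pair was chosen after its values were seen. With 2 libraries a group, the exact two-sided permutation test of the log2 ratio gave p = 0.333, the smallest that this design allows.

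Of the 15 ratios between 2 members, 5 lay apart between the groups, beside 49.3% of all 6441 ratios between 2 tested elements. Of these 5, 4 involved diver2. diver2 relative to roo was 0.428 (can) and 0.793 (sa), against 0.169 (bam) and 0.235 (bgcn). The ratio to Max-element was 5.37 (can) and 6.41 (sa), against 0.790 (bam) and 2.11 (bgcn), and that to rooA was 11.9 and 23.0 against 2.34 and 6.89. Only the ratio of diver2 to 3S18 overlapped between groups. The fifth ratio was that of roo to diver, at 13.1 (can) and 5.38 (sa) against 3.31 (bam) and 2.59 (bgcn).

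**Figure D4:**
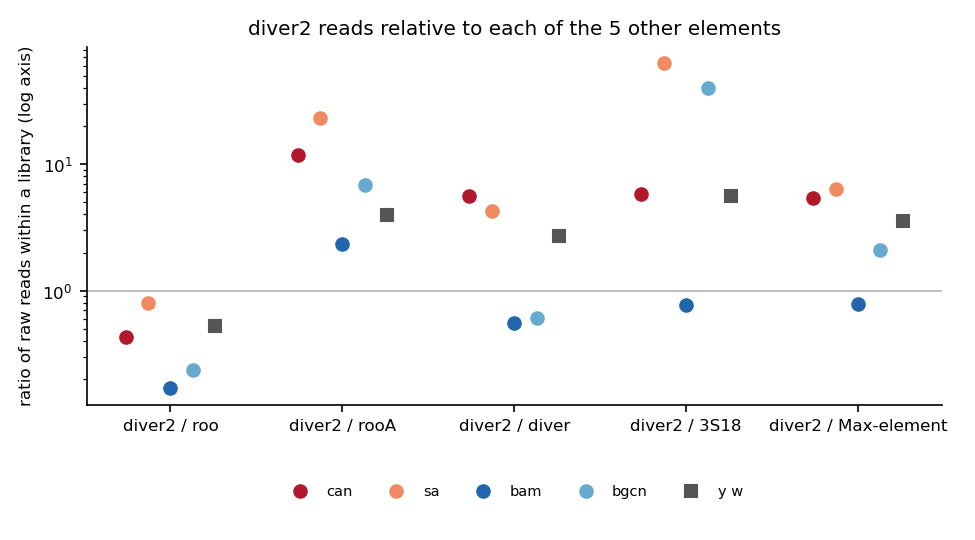
Raw diver2 reads divided by the raw reads of each other element in the same library (log axis), for can, sa, bam, bgcn and y w. The can and sa points lie above the bam and bgcn points for roo, rooA, diver and Max-element, and the groups are mixed for 3S18.

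roo, the most abundant of the 6 in each of the can, sa, bam, bgcn and y w libraries, did not pass the test. It had 25471 (can) and 10199 (sa) raw reads in spermatocyte testes, against 21837 (bam) and 25178 (bgcn) in spermatogonia, and ranked 6th by reads in both spermatocyte libraries and 3rd in both spermatogonia libraries. As shares these were 4.90% and 3.88% against 4.98% and 4.34%, so the groups overlapped. After TMM scaling the log2 fold change was 0.45 (SE 0.54, edgeR adjusted p = 0.766). It turned to -0.08 when library totals were used and to -0.43 under the authors' factors. roo was among the steadier elements within a group, with a 1.15-fold difference in share between the spermatogonia libraries where the median element differed 1.64-fold. Between the spermatocyte libraries roo differed 1.26-fold and the median element 1.77-fold.

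rooA was low throughout and varied more. It had 918 (can) and 352 (sa) raw reads in spermatocyte testes, against 1575 (bam) and 858 (bgcn) in spermatogonia and 1538 in y w. Its bam share of 0.359% stood above the can, sa and bgcn shares of 0.177%, 0.134% and 0.148%. The log2 fold change was -0.18 (SE 1.00, edgeR adjusted p = 0.974) and turned positive without bam (0.64) and without sa (0.41). roo and rooA did not keep a fixed ratio, at 27.7 (can), 29.0 (sa), 13.9 (bam), 29.3 (bgcn) and 7.58 (y w) roo reads per rooA read.

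3S18 differed more between libraries of the same stage than between stages. It had 1890 (can) and 129 (sa) raw reads in spermatocyte testes, against 4780 (bam) and 147 (bgcn) in spermatogonia and 1098 in y w. As shares these were 0.364% (0.348 to 0.380) and 0.0491% (0.0410 to 0.0583) against 1.09% (1.06 to 1.12) and 0.0253% (0.0214 to 0.0298), with 0.308% (0.290 to 0.326) in y w. The high libraries were thus bam, can and y w, and the low ones sa and bgcn. Between bam and bgcn the share differed 43.0-fold, the second largest difference of 114 elements, and between can and sa 7.41-fold, the sixth largest. The stage log2 fold change was -0.84 (SE 0.86, edgeR adjusted p = 0.654) and carries no direction, since it became 3.67 without bam and 0.29 without sa.

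Max-element was high in bam alone. It had 2028 (can) and 1262 (sa) raw reads in spermatocyte testes, against 4669 (bam) and 2801 (bgcn) in spermatogonia. The bam share of 1.06% was over the 0.390% (can), 0.480% (sa), 0.483% (bgcn) and 0.481% (y w) of the others. The sa and bgcn shares differed by less than their counting error (0.454 to 0.507% in sa and 0.465 to 0.501% in bgcn). Its log2 fold change was -0.33 (SE 0.75, edgeR adjusted p = 0.889), and 0.39 without bam.

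In y w, whose testes hold all stages, the shares of 4 of the 6 elements were inside the span set by can, sa, bam and bgcn. diver2 had stage shares of 0.841 to 3.08% and a y w share of 1.72% (1.68 to 1.76). diver had stage shares of 0.375 to 1.67% and a y w share of 0.640% (0.614 to 0.666), so y w lay between the stage groups for diver2 and among the spermatocyte values for diver. Outside the range were roo, with 3.88 to 4.98% in the stage libraries and 3.27% in y w, and rooA, with 0.134 to 0.359% in the stage libraries and 0.431% (0.410 to 0.453) in y w. These were 2 of 6 members, beside 19.3% of tested elements. After TMM scaling (21.9% of elements outside) and by the authors' normalised values (19.3%) roo lay within the span and rooA above it.

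In the aub mutant the normalised levels of all 6 elements were below those of the heterozygote, by factors from 9.04 to 166. Each genotype had 1 library, so no test was made and the differences have no replicate check. Levels are the authors' normalised values, whose basis the sources used here do not state. Together the 6 elements had a normalised level of 240 in the mutant and 6013 in the heterozygote, a 25.1-fold lower level, where the total over all 86 elements was 8.14-fold lower. Their share of the 86 elements' reads was 2.56% in the mutant and 7.88% in the heterozygote. All 6 had a level ratio of at most 0.5, as did 75.0% of the 72 elements with at least 100 reads in the pair. No member and no element (0.0%) had a ratio of at least 2. The median level ratio was 0.0453 over the 6 and 0.0664 over the 72 elements, closer together than the summed levels. Counted from the lowest ratio of the 72, diver2 ranked 7th, Max-element 23rd, diver 28th, roo 29th, rooA 39th and 3S18 44th.

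diver2 had the largest loss of the 6 in the aub mutant. It had 7 reads in the mutant and 1419 in the heterozygote, a level 0.00603 of the heterozygote's (0.00242 to 0.0125), the 7th lowest of 72 elements. Dsim-ninja and aurora-element, the other BEL/Pao elements, had 6 and 9 reads in the mutant and 4509 and 2302 in the heterozygote. As a share of the 86 elements' reads diver2 held 0.0830% in the mutant and 1.69% in the heterozygote.

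roo, diver and Max-element formed a middle group. roo had 149 reads in the aub mutant and 4003 in the heterozygote, a level ratio of 0.0455 (0.0384 to 0.0536). diver had 17 and 460 reads and a ratio of 0.0452 (0.0261 to 0.0731), and Max-element had 10 and 341 reads and a ratio of 0.0358 (0.0170 to 0.0667). These intervals overlap, so the 3 could not be told apart at this depth. rooA and 3S18 had higher point values. rooA had 13 reads in the mutant and 170 in the heterozygote (0.0935, 0.0488 to 0.164). 3S18 had 20 and 221 reads (0.111, 0.0663 to 0.175). The rooA interval overlapped those of roo, diver and Max-element, and the 3S18 interval those of diver and Max-element but not that of roo. Both intervals include 0.123, the ratio of the total over the 86 elements. By ratio of shares 4 of the 6 were at most 0.5, beside 48.6% of elements, and none was at least 2, beside 29.2%. The gypsy-type somatic list held 30.5% of the mutant's reads and 5.16% of the heterozygote's. The 38 gypsy-family elements of the combined table held 81.8% and 37.0%, so the rise was not particular to the somatic list. The part of either set in the share ratios was not tested. In separate tables over all read lengths, reads of 23 to 29 nt were 0.696% of normalised reads in the mutant and 5.85% in the heterozygote. There the share ratios of the 6 ran from 0.836 (roo) to 1.11 (Max-element).

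In the ago3 mutant the losses were smaller for most of the 6 and ran in another order. Their summed normalised level was 1454 in the mutant and 8968 in the heterozygote, 6.17-fold lower, where the total over the 86 elements was 4.74-fold lower. By level 5 of the 6 had a ratio of at most 0.5, beside 91.1% of the 79 elements with at least 100 reads in the pair, and none had a ratio of at least 2 (0.0% of elements). By share 2 were at most 0.5 and 2 at least 2, beside 15.2% of elements in each direction. These counts rest on values near the limits, since with Dsim-ninja, aurora-element and hoppel left out of the totals the share ratio of Max-element was 1.955 and that of rooA 0.451.

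By point value diver had the lowest ago3 level ratio and 3S18 the highest. diver had 16 reads in the ago3 mutant and 180 in the heterozygote, a level ratio of 0.0583 (0.0326 to 0.0973), the 7th lowest of 79. 3S18 had 160 reads in the mutant and 150 in the heterozygote, which after the authors' normalisation is a level ratio of 0.699 (0.556 to 0.880), the highest of all 79 elements. Its share of the 86 elements' reads was 0.485% in the mutant and 0.146% in the heterozygote, a ratio of 3.32 (2.64 to 4.17).

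Max-element came next to 3S18. It had 307 reads in the ago3 mutant and 411 in the heterozygote, a level ratio of 0.490 (0.421 to 0.569) and a share ratio of 2.32 (2.00 to 2.70). The level ratio of roo was 0.147 (0.137 to 0.157), that of rooA 0.113 (0.0845 to 0.149) and that of diver2 0.0931 (0.0806 to 0.107). The interval of roo lay above those of diver2 and diver, while the intervals of diver, diver2 and rooA overlapped, so their order could not be told at this depth. All 6 levels were below the heterozygote in the combined table. There 3S18 and Max-element lay above the total's ratio of 0.211 while the other 4 lay below it. The combined table set a read to 0.810 in the ago3 mutant and 1.23 in the heterozygote. In the separate tables over all read lengths, 381838 reads became 400130 in the mutant and 274660 stayed 274660 in the heterozygote. The size of every level ratio depends on that normalisation. So does the direction for 3S18, with 160 reads in the mutant and 150 in the heterozygote. Over all read lengths the ago3 share ratios ran from 0.502 for roo to 1.55 for diver.

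**Figure D5:**
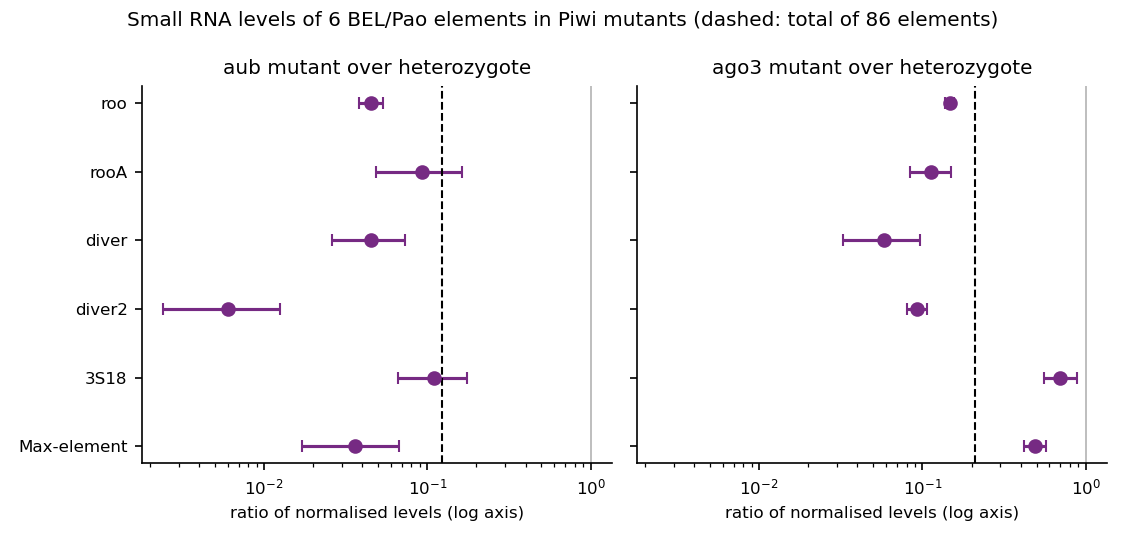
Ratio of normalised small RNA levels, mutant over heterozygote, for aub and ago3 (log axis), with 95% exact binomial intervals for counting error. The dashed lines mark the total over 86 elements, 0.123 for aub and 0.211 for ago3, and the grey lines mark 1. diver2 lies lowest in aub at 0.00603, and 3S18 lies highest in ago3 at 0.699.

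Set side by side, the aub and ago3 level ratios of the combined table were close for rooA and diver and far apart for diver2 and Max-element. The level ratio of diver2 was 0.00603 in aub and 0.0931 in ago3, and that of Max-element was 0.0358 in aub and 0.490 in ago3. For 3S18 the ratios were 0.111 and 0.699, and for roo 0.0455 and 0.147. In these 4 elements the intervals of the aub and ago3 ratios did not overlap, and neither did they in 77.1% of the 70 elements with at least 100 reads in both pairs. The median element of those 70 had an ago3 level ratio 3.03 times its aub level ratio, against 3.23 times for roo and 15.4 times for diver2. For rooA the ratios were 0.0935 and 0.113, and for diver 0.0452 and 0.0583, with overlapping intervals. diver had 17 reads in the aub mutant and 16 in the ago3 mutant, and rooA 13 and 60. A comparison of level ratios across the pairs also depends on the normalisation, so this overlap does not show that the mutants were alike. The heterozygotes themselves differed in diver, with a share in aub/CyO 3.13 times that in ago3/TM6 (2.63 to 3.74), in 3S18 (1.80, 1.46 to 2.23) and in rooA (0.598, 0.494 to 0.720). Shares of Max-element (1.01, 0.877 to 1.17) did not differ beyond counting error, and those of diver2 (1.10, 1.02 to 1.18) and roo (1.07, 1.02 to 1.11) differed by small amounts.

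Across the 5 libraries bam, bgcn, can, sa and y w the 6 elements had different closest neighbours among the other 113 tested elements. Pearson correlations of log2 TMM-scaled rpm over these 5 libraries are given as a description, since the libraries also share their differences in depth and composition. diver was closest to Dm88 (r = 1.00 after rounding) and gypsy5 (0.95). diver2 was closest to Tirant (0.97) and baggins (0.97), and roo to mariner2 (0.90) and Juan (0.81). For 3S18 the closest were Ivk (0.93) and BS3 (0.87), for rooA Fw3 (0.91) and gypsy7 (0.91), and for Max-element Doc3-element (0.90), after a gypsy-family element named by a number (0.96). No member was among the 2 closest elements of another. Between members, r ran from -0.87 for diver with diver2 to 0.81 for rooA with 3S18.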

How the data were processed

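Small RNAs of hand-dissected testes were sequenced from small RNA libraries, per the labels' protocols. Bowtie version 1 and DESeq2 are named without a role, per the submitters' processing notes. For can, sa, bam, bgcn and y w the authors deposited raw read counts per transposon and a normalised signal, which equals the count times 1 factor per library (0.7104 to 1.3606, basis not stated). The combined aub and ago3 table deposited by the authors holds a normalised signal. In each library all 86 values were whole multiples of a common step, within 0.001 reads, and reads were worked back from it. Other tables of these 4 libraries, of mixed content, hold counts over all read lengths.

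Stage groups were compared with edgeR 4.0.16 in R 4.3.3 (TMM, quasi-likelihood test, two-sided, Benjamini-Hochberg over 114 elements, threshold 0.05). Elements entered when 2 or more of the 4 libraries counted at least 10 reads. Standard errors were derived from the log2 fold change and F. The script was tested on simulated data. DESeq2 1.42.0, other scalings and filters, and leaving out each library were alternatives. The mutants were compared as ratios with exact binomial intervals on the reads, and shares were also taken without Dsim-ninja, aurora-element and hoppel. Transposon copies came from the Ensembl BDGP6 annotation, in which Max is taken as Max-element. It was not set against the authors' tables by coordinates, and no element sequence was used here. The members, lists and tests were chosen with earlier results of these data known. All 6 members are named in the stage comparison, in the y w shares and in the mutant level ratios. Other comparisons give a range or a count for some members. The 2 closest elements by correlation are named for each member, apart from 1 whose name is a number.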

Additional observations from a re-analysis of the deposited data

How the results depend on the processing

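The count of members called between stages was 1 in the reported fit and with DESeq2, relative log expression scaling, no filter or a count of at least 100, 0 with library totals or the authors' factors, and 0 to 1 when each library was left out. The diver2 log2 fold change stayed positive in all 10 alternatives, from 1.09 to 2.12, and that of diver negative in all 10. Over all elements 12 were called, 6 with library totals and 5 to 12 when a library was left out (17 with DESeq2). The roo log2 fold change turned to -0.085 (library totals) and to -0.43 (authors' factors). Leaving out a library gave -0.70 to 0.64 for rooA, -3.15 to 3.67 for 3S18 and -0.81 to 0.39 for Max-element. In y w, 2 members lay outside the stage range by share, 1 after TMM scaling and 1 by the authors' normalised values, and 2 to 3 when a stage library was left out. In the mutants, share ratios over all read lengths stayed within 2-fold for all 6 members in aub and in ago3. They were 1.11 for Max-element in aub and 1.55 for diver in ago3. How many of all elements stayed within 2-fold in these tables was not counted. In those tables reads of 23 to 29 nt made up 9.52% of normalised reads in the ago3 mutant and 42.2% in its heterozygote. In ago3 the share ratios of 3S18 and Max-element were above 1 and their level ratios 0.699 and 0.490. Levels carry the authors' normalisation of each library and shares do not. The cause of a change with the setting was not tested. No paired analysis was possible because each stage library is a different genotype and the labels give no replicate numbers. With 7 to 20 reads for 5 of the 6 elements in the aub mutant, depth limits those ratios.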
